A study of Mus musculus with 42 samples.

Results

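The proteasome genes of mouse brain were described across 6 regions, chronic restraint stress (CRS) and forced swim test class. Members were the protein-coding genes whose symbols begin with Psm, a letter from a to g and a number. The table of the lateral habenula (LHb) held 51 of them among 37410 genes, and the table of the other regions held 50 among 40905, Psme3ip1 being listed only for LHb. By role they were 7 alpha ring and 7 beta ring subunits, 3 immunoproteasome subunits, 2 core subunits of other tissues (Psma8 and Psmb11), 6 base ATPases, 3 other base subunits, 8 lid subunits, 7 assembly factors, 5 activators and 1 inhibitor. A further 2 (Psmc3ip and Psme3ip1) share the name pattern but are not subunits. The 31 ring, base and lid genes are called the constitutive subunits here.

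RNA was read from fresh brain tissue of mice after CRS, in which mice are confined repeatedly as a model of depression, and of naive mice, all tested in the forced swim test (FST), where longer immobility is the depression-like outcome, 2 days before sacrifice. In LHb there were 3 libraries each of CRS mice with high FST immobility (above 110 s), CRS mice with low immobility (50 to 110 s), naive mice with high immobility (50 to 80 s) and naive mice with low immobility (below 50 s). The high naive range lies inside the low CRS range, so the classes do not mark the same immobility in CRS and naive mice. In the lateral hypothalamus (LH), the medial prefrontal cortex (mPFC), the ventral hippocampus (vHippo), the nucleus accumbens (NAc) and the ventral tegmental area (VTA) there were 3 CRS and 3 naive libraries each, without an FST class. No strain, sex, age or transgene is given in the labels, and they do not say whether libraries are separate animals, so the p-values measure the spread between these libraries.

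The 26S proteasome is the protease that degrades proteins tagged with ubiquitin. Its barrel is made of alpha rings, which gate the entrance, around beta rings, which hold the cutting sites of Psmb5, Psmb6 and Psmb7. A cap unfolds the substrate with the ring of base ATPases and removes the ubiquitin chain in the lid. In cells exposed to interferon, and in immune cells without it, Psmb8, Psmb9 and Psmb10 replace the 3 constitutive catalytic subunits, which gives the immunoproteasome. In neurons the proteasome degrades synaptic proteins and works beside autophagy in clearing misfolded protein.

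The promoters of 3 genes are shown. Psmb5 is the constitutive catalytic subunit gene of the first pair compared. Psmd12 and Psmc5 are the members with the smallest p in the test over naive regions. No result rests on these promoters. They run from 250 bases before to 50 after the transcript start, 5′ to 3′ on the gene's strand, from RefSeq on GRCm38.p6: chr14:54617946-54618245 (minus strand) for Psmb5, chr11:107479278-107479577 (plus) for Psmd12 and chr11:106255935-106256234 (plus) for Psmc5. Capitals mark matches to the motifs searched, on either strand.
Psmb5: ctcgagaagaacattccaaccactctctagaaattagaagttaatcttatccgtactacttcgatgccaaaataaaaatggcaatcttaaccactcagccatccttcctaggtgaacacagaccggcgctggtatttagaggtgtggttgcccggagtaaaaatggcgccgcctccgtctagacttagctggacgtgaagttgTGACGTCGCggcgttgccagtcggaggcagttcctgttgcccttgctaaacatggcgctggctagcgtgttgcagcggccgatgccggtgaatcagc
Psmd12: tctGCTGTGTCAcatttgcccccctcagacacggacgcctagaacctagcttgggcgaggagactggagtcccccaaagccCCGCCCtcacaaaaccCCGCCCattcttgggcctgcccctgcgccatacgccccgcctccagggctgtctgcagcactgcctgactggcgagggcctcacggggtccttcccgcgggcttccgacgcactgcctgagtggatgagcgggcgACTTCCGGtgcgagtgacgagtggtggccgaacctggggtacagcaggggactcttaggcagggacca
Psmc5: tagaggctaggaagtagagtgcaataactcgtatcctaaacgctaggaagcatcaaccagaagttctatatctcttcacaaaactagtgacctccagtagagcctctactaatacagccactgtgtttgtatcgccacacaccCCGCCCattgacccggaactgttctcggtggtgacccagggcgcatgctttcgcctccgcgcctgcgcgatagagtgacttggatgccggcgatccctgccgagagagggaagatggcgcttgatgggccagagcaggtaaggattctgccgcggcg
The capitals in Psmb5, at -47 from the start, match TGACNNNGC, the core of the antioxidant response element, which Nrf1 and Nrf2 (encoded by Nfe2l1 and Nfe2l2) bind when they induce proteasome genes. Psmd12 held the antioxidant core at -247, the GC box GGGCGG at -169 and -153 and the ETS site CCGGAAGT at -18, all on the reverse strand, and Psmc5 held a GC box at -107 on the reverse strand. RefSeq promoters were matched for 43 members, which have 47 promoters, and the shares of all 32851 promoters of the same length are given beside theirs. The ETS site was in 10 of 47 (21.3%), against 3.89% of all promoters, and the GC box in 25 (53.2%), against 35.7%. The antioxidant core was in 6 (12.8%), against 12.4%, and CCAAT in 16 (34.0%), against 37.4%. TATAAA was in 4 (8.51%), against 13.6%. The searched letters overlap no other motif here, and a match is a description of sequence.

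An LHb library held 56459734 to 79849567 counts and one of another region 53143878 to 81384893, of which the members took 0.263% to 0.299% and 0.220% to 0.346%. Tissue identity was checked on marker lists. The habenular markers Gpr151, Tac2 and Scube1 summed to between 349 and 528 FPKM (fragments per transcript length and mapped library size) in the LHb groups, and to at most 37.4 FPKM in naive libraries of the other regions. Pancreatic enzyme transcripts, which brain does not make, were present in LHb naive high 3, CRS high 2 and 3, and CRS low 2. Choroid plexus transcripts stood out in LHb CRS high 1, CRS low 1 and naive low 1. Over the LHb libraries the pancreatic list summed to at most 522 FPKM (median 0.289). The choroid plexus list summed to 10.4 to 7036 FPKM there (median 65.9). Of the CRS LHb libraries, only CRS low 3 is named for neither. Among VTA naive libraries, number 2 had 14.1 FPKM of the dopamine markers Th and Slc6a3, against 363 and 128 in numbers 1 and 3, and 294 FPKM of red blood cell genes, against 9.72 and 7.53. The dopamine markers reached 971 FPKM in a VTA CRS library. Lateral hypothalamic markers reached 182 FPKM in VTA, against a median of 3.46 over its libraries. Among NAc naive libraries, number 1 had 206 FPKM of hippocampal and cortical markers, against 0.556 and 4.12 in numbers 2 and 3. The median over the CRS and naive NAc libraries together was 36.5 FPKM, so CRS libraries held these transcripts too. Among mPFC naive libraries, number 3 had 105 FPKM of leptomeningeal markers, against 6.42 and 5.31 in numbers 1 and 2, and 82.0 FPKM of endothelial markers, against 20.8 and 24.5. LH naive 2 had 203 FPKM of lateral hypothalamic markers, against 1073 and 1397 in numbers 1 and 3, and mPFC CRS 3 had 43.3 FPKM of the dopamine markers, against 0.965 and 1.18 in CRS 1 and 2. Fold changes without the libraries numbered here are given for some results only. None is given for the FST class comparisons, for the pathway genes, or for mPFC CRS against naive without mPFC naive 3.

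Most ring, base and lid genes were expressed above the assembly factors, with overlap at the low end, and all above the immunoproteasome genes Psmb8 and Psmb9. In LHb, the alpha ring genes ran from 13.6 FPKM for Psma3 to 41.5 for Psma6, a mean over 12 libraries, and the beta ring genes from 12.8 for Psmb3 to 41.9 for Psmb4. Of the base ATPases, Psmc2 was lowest at 17.9 and Psmc5 highest at 79.5 FPKM, and of the lid genes Psmd11 was lowest at 9.64 and Psmd7 highest at 34.8. Assembly factors, which are needed only while the particle is built, ran from 1.51 FPKM for Psmg3 to 10.6 for Psmd5, which lay above Psmd11. Among the activators, Psme3, the nuclear cap that acts without ubiquitin, reached 41.3 FPKM and Psme2b 3.92. The inhibitor Psmf1 was at 5.97 FPKM. Psma8, the alpha subunit of the testis proteasome, and Psmb11, the thymic beta subunit, averaged 0.049 and 0.012 FPKM in naive LHb.

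The immunoproteasome genes stood below the subunits they replace, far below for Psmb8 and Psmb9 and less so for Psmb10. In naive LHb, Psmb8 averaged 0.706 ± 0.122 FPKM (SD, n = 6) beside 39.3 ± 3.59 for Psmb5. Psmb9 averaged 0.381 ± 0.112 FPKM beside 27.4 ± 1.53 for Psmb6, while Psmb10 averaged 5.71 ± 0.667 beside 19.5 ± 1.69 for Psmb7. Psmb10 was thus the inducible subunit gene with the highest level, here and in the other 5 regions.

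Within groups the members had a lower median spread than all genes. Over the 47 members with a mean of at least 1 FPKM in LHb, the coefficient of variation within groups had a median of 6.33%, from 1.45% for Psmd2 to 29.3% for Psme2b, and over all such genes it was 9.88%. In the other regions the median over 45 members was 13.5%, against 16.1% for all genes. The spread among the 3 libraries of a group was thus wider outside LHb. Of all such genes, 18.5% in LHb and 34.5% in the other regions lay below the member median. Genes were not matched by level, which also affects this spread.

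**Figure D1:**
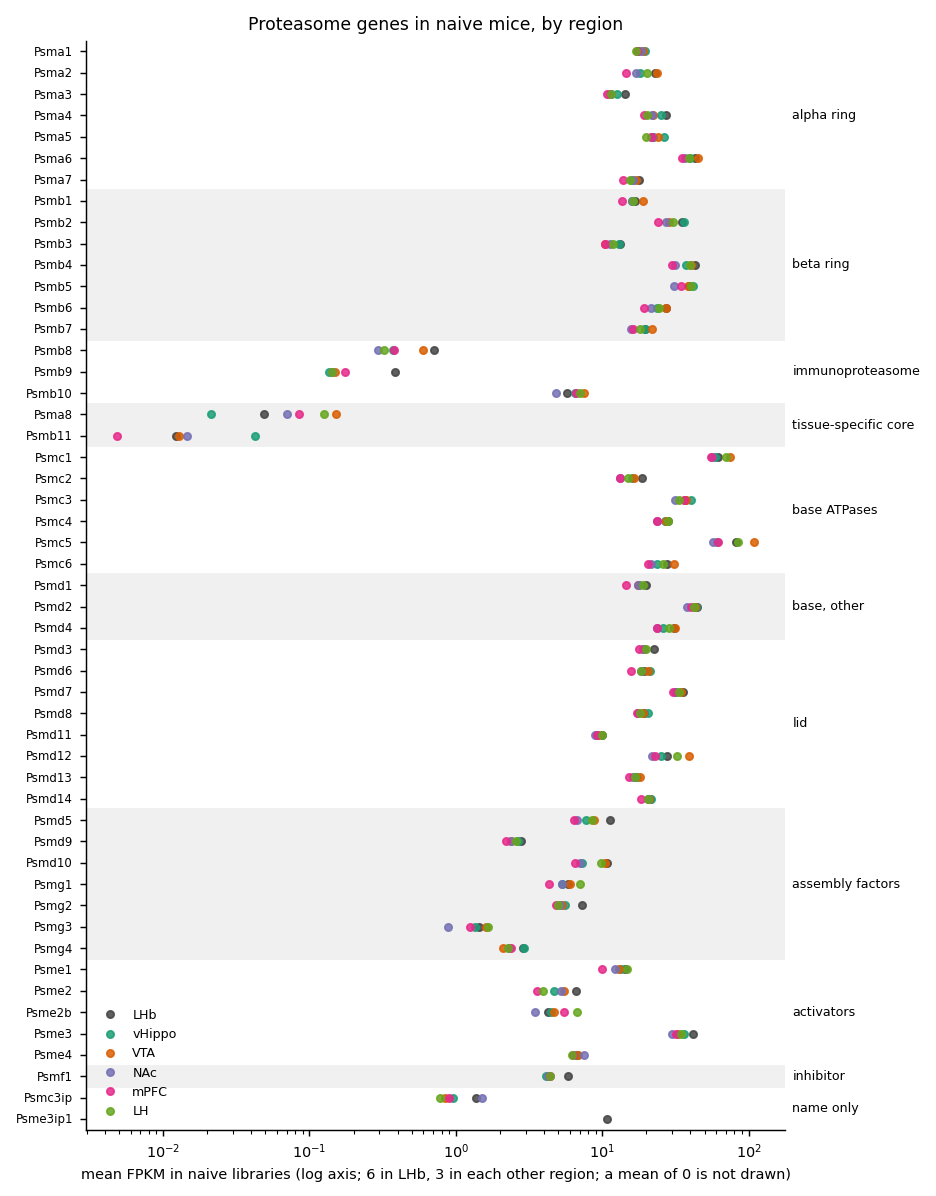
Each row is a proteasome gene, grouped by role, and each point its mean FPKM (log axis) in the naive libraries of a region, 6 in LHb and 3 elsewhere. Constitutive subunits run from 8.99 FPKM (Psmd11 in NAc) to 108 (Psmc5 in VTA), and the immunoproteasome genes Psmb8 and Psmb9 lie below 1 FPKM in all 6 regions.

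The comparison of CRS with naive LHb addressed what stress changed over both FST classes. No proteasome gene passed the test. The constitutive subunits were slightly lower in CRS libraries, with estimates that were negative for 31 of 31 genes and had a median log2 fold change of -0.10, a fold of 0.932. Their intervals (95%) reached from -0.38 to 0.13 at the extremes. With edgeR's quasi-likelihood test and Benjamini-Hochberg adjustment, 0 of 50 tested members passed, against 1.17% of all genes, and 7 had an unadjusted p below 0.05, against 12.7% of all genes. Over the 50 tested members (Psmb11 was too low to test), 42 had negative estimates and the median was -0.09, while the median over all genes was -0.00 and 50.9% of all genes were negative. No member had CRS and naive values that did not overlap, against 0.241% of all genes that were lower and 0.219% that were higher in this sense. In bulk tissue, fewer cells of a type and less RNA per cell cannot be told apart.

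The members with the smallest p were Psmd12 and Psmd5. Psmd12, a lid subunit, had 23.6, 23.5 and 26.5 FPKM in CRS high and 23.6, 24.2 and 25.8 in CRS low libraries, against 26.1, 27.9 and 25.5 in naive high and 26.5, 30.3 and 28.7 in naive low libraries. The lowest naive value, 25.5, lay below 2 of the 6 CRS values. Psmd12 averaged 24.5 ± 1.29 FPKM over CRS libraries and 27.5 ± 1.81 over naive ones (SD, n = 6 each), a log2 fold change of -0.18 ± 0.06 (SE; 95% interval -0.30 to -0.06; adjusted p = 0.204, edgeR). Psmd5, a chaperone of base assembly, had 10.05, 10.4 and 9.75 FPKM in CRS high and 10.2, 9.47 and 9.87 in CRS low libraries, against 10.3, 12.2 and 11.4 in naive high and 9.94, 11.9 and 11.8 in naive low libraries. Its log2 fold change was -0.19 ± 0.07 (adjusted p = 0.290). Without the libraries with pancreatic transcripts the log2 fold changes of Psmd12 and Psmd5 were -0.20 and -0.16, and without those with choroid plexus transcripts -0.17 and -0.24. Psma4, Psma3, Psmd14, Psmc2 and Psmb7 were the other members with an unadjusted p below 0.05, and all 7 had negative estimates. Psmd14 is the lid enzyme that cuts ubiquitin chains off substrates.

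By role, the median log2 fold change was -0.12 over the alpha ring, -0.10 over the beta ring, -0.08 over the base ATPases, -0.05 over the other base subunits and -0.09 over the lid, each with no gene above 0. The assembly factors had a median of -0.07 with 6 of 7 negative. Psmg2, a chaperone of alpha ring assembly, averaged 6.46 ± 0.921 FPKM over CRS libraries and 7.28 ± 0.308 over naive ones (n = 6 each; -0.18 ± 0.10; adjusted p = 0.487, edgeR). The activators had a median of -0.04 with 3 of 5 negative, and Psmf1 had an estimate of 0.05 ± 0.06 (adjusted p = 0.770, edgeR). Psma5, an alpha ring subunit, averaged 21.4 ± 3.04 FPKM over CRS libraries and 22.3 ± 1.34 over naive ones, a log2 fold change of -0.07 ± 0.08 (adjusted p = 0.765). Differences between these medians were not tested.

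**Figure D2:**
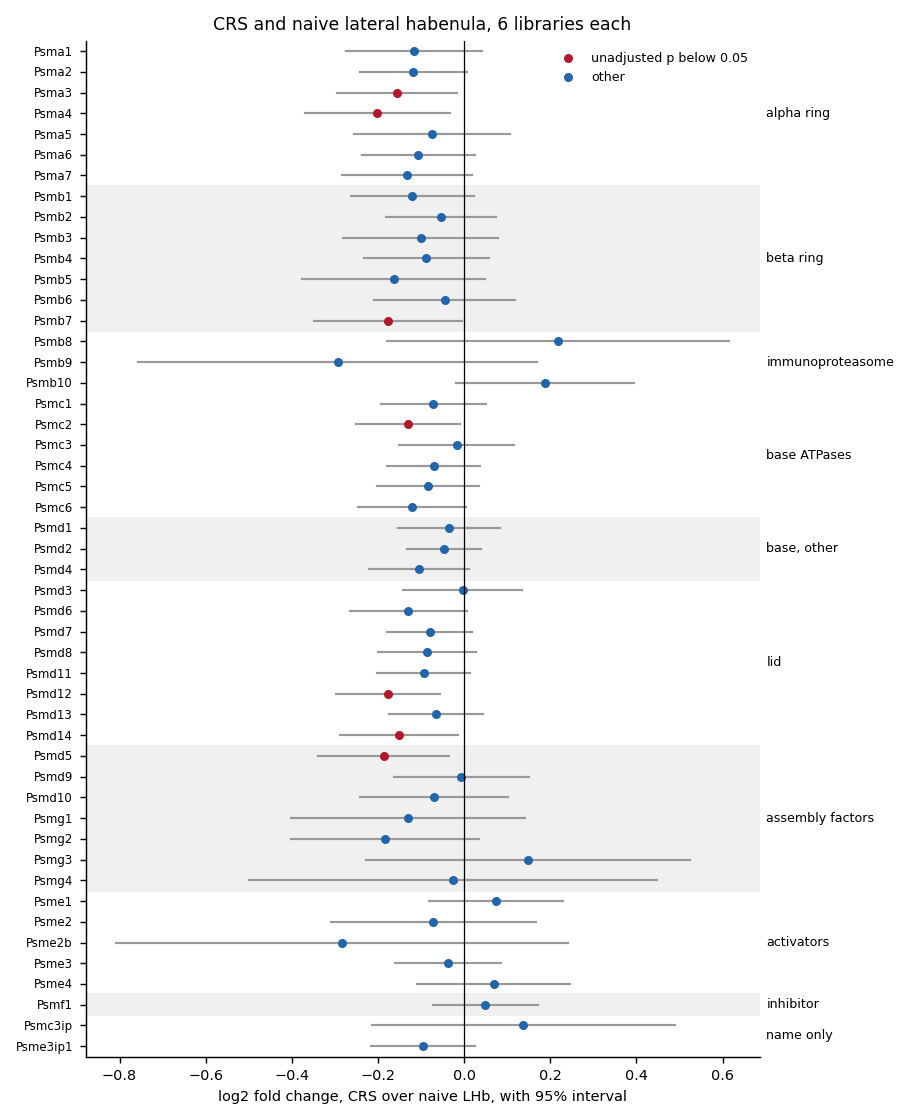
Points are log2 fold changes of CRS over naive LHb (6 libraries each) with 95% intervals, for 49 tested members grouped by role (Psma8, at 0 or near it in all libraries, is not drawn). All 31 constitutive subunits lie left of 0, red points have an unadjusted p below 0.05, and no gene passed the adjusted threshold.

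The levels were uneven over libraries. Summed over the 31 constitutive genes, CRS high libraries 1, 2 and 3 had 793, 797 and 862 FPKM and CRS low libraries 808, 843 and 897, against 854, 875 and 885 in naive high and 881, 878 and 921 in naive low libraries. CRS high 1, CRS high 2 and CRS low 1 held the lowest value of 10, 10 and 7 of the 31 genes. CRS low 3 lay above 5 of the 6 naive libraries and held the highest value of 6 genes. It was also the only CRS library named above for neither pancreatic nor choroid plexus transcripts. Of the naive libraries, only naive high 3 and naive low 1 were named for them. These transcripts were thus uneven between CRS and naive mice. No fit left out both sets together, and their part in the lower levels was not tested. Over the alternatives tried, 29 to 31 of the 31 genes stayed negative, and the median ran from -0.13 (without CRS low 3) to -0.07 (without the 3 libraries with choroid plexus transcripts, of which 2 are CRS).

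Markers of neurons and oligodendrocytes had estimates of a similar size. The neuronal list was negative for 6 of 6 genes with a median log2 fold change of -0.12, and summed to 482 to 521 FPKM in CRS high and 483 to 523 in CRS low libraries, against 510 to 585 in naive high and 492 to 603 in naive low libraries. The oligodendrocyte list was negative for 5 of 6 genes (median -0.12) and summed to 918 to 1109 FPKM in CRS high and 1028 to 1229 in CRS low libraries, against 1064 to 1234 in naive high and 1136 to 1242 in naive low libraries. The astrocyte list was negative for 0 of 5 genes (median 0.06), and microglial genes for 3 of 8 (0.09). None of these genes passed the test, no marker of these 4 lists was at 0 in any LHb library, and their part in the proteasome values was not tested.

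**Figure D3:**
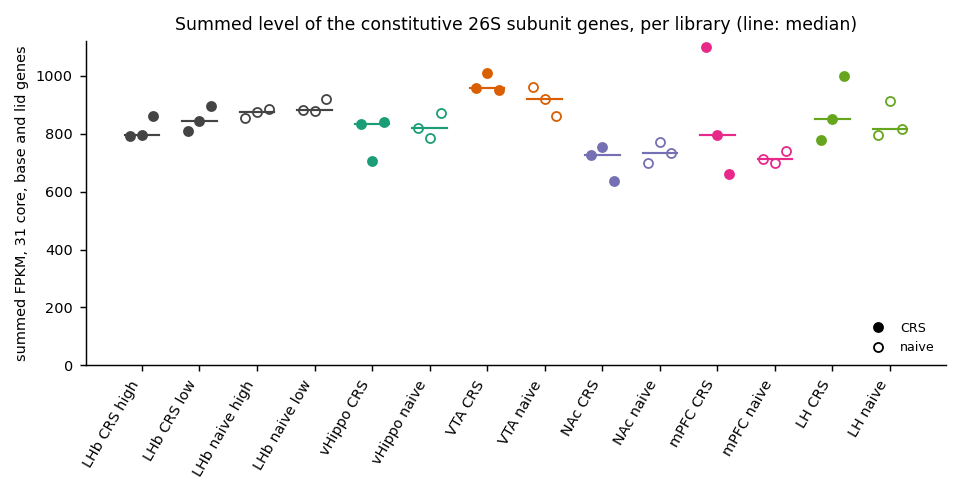
Points are the FPKM summed over 31 constitutive subunit genes in each library, filled for CRS and open for naive, with a line at the group median. In LHb the CRS libraries run from 793 to 897 and the naive libraries from 854 to 921, and the mPFC CRS group holds a library at 1098 beside ones at 794 and 662.

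The catalytic pairs addressed whether CRS shifts LHb toward immunoproteasome subunits. Psmb8 had 0.853, 0.851 and 0.769 FPKM in CRS high and 0.564, 1.17 and 0.753 in CRS low libraries, against 0.888, 0.543 and 0.610 in naive high and 0.781, 0.716 and 0.699 in naive low libraries, values that overlapped. Its log2 fold change was 0.22 ± 0.18 (adjusted p = 0.672, edgeR), while Psmb5, its constitutive counterpart, had -0.16 ± 0.10 (adjusted p = 0.534). Psmb10 had 6.44, 6.23 and 7.16 FPKM in CRS high and 5.61, 7.43 and 6.43 in CRS low libraries, against 6.09, 4.90 and 5.32 in naive high and 5.83, 5.34 and 6.77 in naive low libraries. Its estimate was 0.19 ± 0.10 (adjusted p = 0.448) and that of Psmb7 -0.18 ± 0.08 (adjusted p = 0.373). Psmb9 and Psmb6 had -0.29 ± 0.21 (adjusted p = 0.619) and -0.05 ± 0.07 (adjusted p = 0.851). None of the 6 genes passed alone.

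As ratios within a library, Psmb10 was 39.4%, 37.7% and 38.5% of Psmb7 in CRS high and 37.6%, 38.7% and 34.4% in CRS low libraries, against 33.1%, 23.7% and 24.6% in naive high and 31.3%, 26.2% and 39.5% in naive low libraries. CRS values lay above 5 of the 6 naive ones, and naive low 3 lay above all CRS values. The mean log2 ratio was 0.37 higher in CRS, with p = 0.0195 in an exact two-sided permutation test of 6 against 6 libraries and 0.0584 after adjustment over the 3 ratios, so that it missed the threshold. Psmb8 was 1.80% to 3.12% of Psmb5 in CRS (median 2.25%), against 1.36% to 2.23% in naive libraries (median 1.91%), a difference of 0.37 (exact permutation p = 0.0628, adjusted 0.0942). Psmb9 was 0.901% to 1.41% of Psmb6 in CRS, against 0.822% to 1.97% in naive libraries, a difference of -0.23 (exact permutation p = 0.348, adjusted 0.348). With the pancreatic libraries left out, the Psmb10 difference was 0.29 (exact permutation p = 0.179), and without the choroid plexus libraries 0.37 (exact permutation p = 0.0952).

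**Figure D4:**
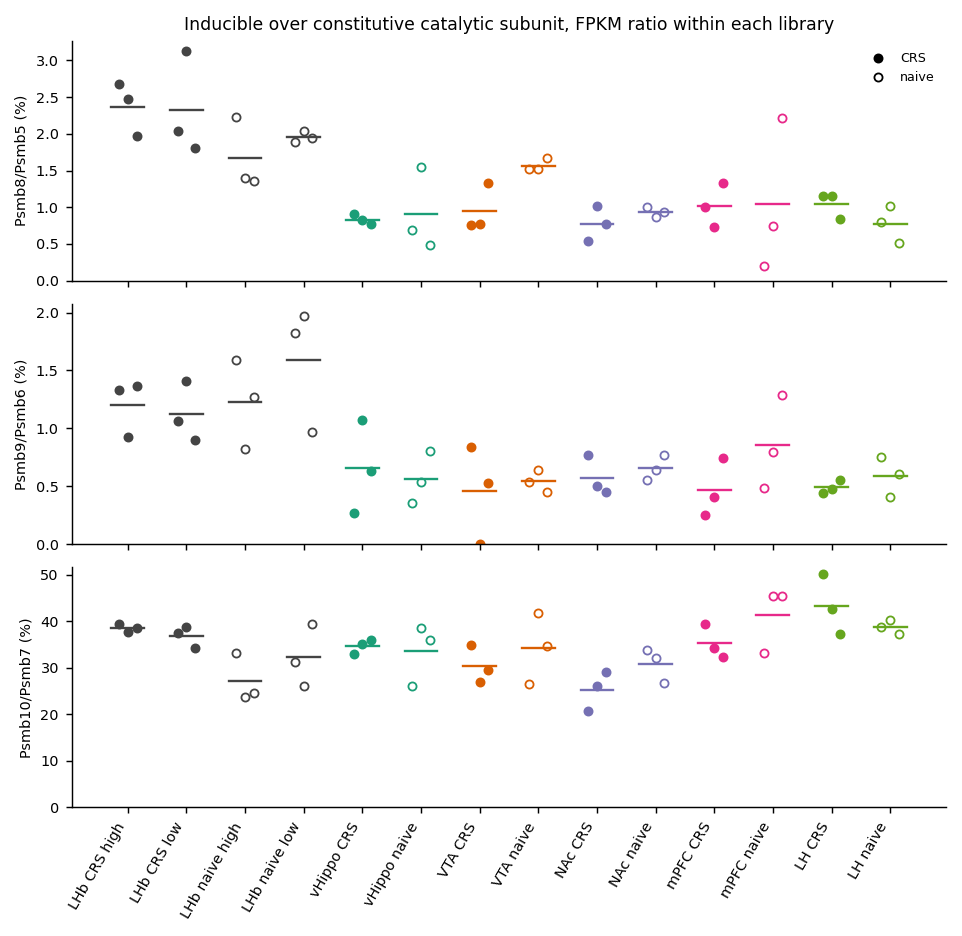
Each panel gives, for every library, the FPKM of an immunoproteasome subunit gene as a percentage of the constitutive one it replaces, filled for CRS and open for naive, with a line at the group mean. In LHb the Psmb10 to Psmb7 ratio runs from 34.4% to 39.4% in CRS and from 23.7% to 39.5% in naive libraries.

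In the other regions, with 3 against 3 libraries, the smallest exact p that can be had is 0.1, so the ratios are given as values. Psmb8 was 0.764% to 1.33% of Psmb5 in CRS and 1.52% to 1.67% in naive VTA, lower in CRS without overlap, while the CRS median was above the naive median in LHb. In the other regions the CRS and naive ranges overlapped. Their medians were 1.15% in CRS and 0.7996% in naive LH, 0.767% in CRS and 0.942% in naive NAc, 1.001% in CRS and 0.739% in naive mPFC, and 0.820% in CRS and 0.685% in naive vHippo. Psmb10 was a median of 42.7% of Psmb7 in CRS and 38.8% in naive LH, 26.1% in CRS and 32.2% in naive NAc, 34.3% in CRS and 45.4% in naive mPFC, 29.5% in CRS and 34.7% in naive VTA, and 35.1% in CRS and 36.1% in naive vHippo. The CRS median was thus lower in 4 of these 5 regions and higher in LH, opposite in those 4 to LHb, with ranges that overlapped in each. The Psmb9 count was 0 in VTA CRS 2, and LHb levels come from a table that was normalised apart from the others.

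Splitting LHb by FST class addressed whether proteasome genes follow behaviour. No member passed in any of the class comparisons, and these comparisons share libraries. Between naive high and naive low mice, 0 of 50 members passed, against 3.07% of all genes, and the median was 0.01. Psmd11, a lid subunit, alone had an unadjusted p below 0.05, against 17.0% of all genes. It was at 9.30, 9.39 and 8.52 FPKM in naive high libraries, against 10.6, 10.5 and 11.3 in naive low libraries. Those groups did not overlap, and the log2 fold change was -0.21 ± 0.07 (adjusted p = 0.152, edgeR). In 8 members the naive high FPKM values were all below the naive low values, against 11.6% of all genes, and in none were they all above, against 9.95%. The fold changes are scaled otherwise than FPKM, and by them 27 of the 50 members were positive, while 52.7% of all genes were negative. Psma1 was among the 8, with 16.3 ± 0.934 FPKM in naive high and 18.8 ± 0.187 in naive low mice (-0.16 ± 0.10; adjusted p = 0.472).

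Between CRS high and CRS low mice 0 of 50 members passed, against 0.0% of all genes, and 0 had an unadjusted p below 0.05, against 2.12%. Estimates were negative for 35 of the 50, against 51.2% of all genes. Psmb2, a beta ring subunit without a cutting site, had 33.8, 30.3 and 33.5 FPKM in CRS high libraries, against 37.3, 35.8 and 35.0 in CRS low libraries. Its log2 fold change was -0.14 ± 0.08 (adjusted p = 1, edgeR) although the groups did not overlap. It was 1 of 4 members lower without overlap (the others were Psma4, Psmd13 and Psmd2), against 4.38% of all genes, and no member was higher without overlap, against 3.43%. Psmd13, a lid subunit that shares its locus with Gm15542, had 16.1, 14.1 and 16.0 FPKM in CRS high and 16.7, 17.1 and 16.6 in CRS low libraries (-0.11 ± 0.07; adjusted p = 1).

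Against naive low mice, CRS high mice had 0 of 50 members called (3.67% of all genes) and 8 with an unadjusted p below 0.05 (16.1% of all genes). Estimates were negative for 41 of the 50, against 55.0% of all genes. Psmd11 had 9.52, 8.96 and 9.17 FPKM in CRS high libraries, all below the naive low values, with -0.21 ± 0.07 (adjusted p = 0.145, edgeR), and Psmd12 had -0.20 ± 0.08 (adjusted p = 0.219). In this comparison 15 members were lower without overlap, against 12% of all genes, among them 6 of the 7 alpha ring genes, and 1 was higher (Psme4, the activator that caps the barrel alone), against 11.9%. CRS low mice against naive low mice gave 0 of 50 called (2.19% of all genes) and 2 with an unadjusted p below 0.05 (11.3% of all genes), Psmd12 at -0.21 ± 0.08 (adjusted p = 0.293) and Psmd11 at -0.18 ± 0.07 (adjusted p = 0.320). There 6 members were lower without overlap, against 8.29% of all genes, and none was higher, against 8.39%. Estimates were negative for 40 of the 50 members, against 54.5% of all genes.

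Against naive high mice, CRS high mice had 0 of 50 called (0.0% of all genes), 31 of 31 constitutive genes negative and a median over them of -0.11. Estimates were negative for 40 of the 50 members, against 50.1% of all genes. An unadjusted p below 0.05 was found for 4 members (Psmb7, Psma4, Psma3 and Psmd13), against 5.49% of all genes. Psmb7 was at -0.27 ± 0.11 and Psma4 at -0.26 ± 0.11 (both adjusted p = 0.845, edgeR). Psma4, an alpha ring subunit, had 22.97, 22.5 and 22.97 FPKM in CRS high libraries, against 25.2, 24.3 and 30.6 in naive high libraries. It was 1 of 6 members lower without overlap, with Psma3, Psmd4, Psmd13, Psmd14 and Psmg2, against 4.52% of all genes, and Psmb10 was the 1 higher, against 6.04%. CRS low mice against naive high mice gave 0 of 50 (0.0% of all genes) and 2 with an unadjusted p below 0.05 (7.67% of all genes), Psmd5 at -0.24 ± 0.10 (adjusted p = 0.644) and Psmb7 at -0.25 ± 0.11 (adjusted p = 0.647). Psmd5 was also the 1 member lower without overlap, against 4.65% of all genes, and the activator subunit Psme1 and the inhibitor Psmf1 were higher in this sense, against 7.3%. Estimates were negative for 36 of the 50 members, against 50.5% of all genes. The test of whether the CRS difference changed with FST class gave 0 of 50 members, against 0.202% of all genes, and 0 with an unadjusted p below 0.05, against 6.74%, the smallest adjusted p being 0.832 for Psmd13 (-0.18 ± 0.10) and 0.834 for Psmd11 (0.18 ± 0.10).

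In the other 5 regions CRS changed no member past the threshold. In each of vHippo, VTA, NAc, mPFC and LH the count was 0, against 0.0% of all genes, and the test of a CRS difference that varies over the 5 regions called 0 of 50, against 0.0% of all genes, with 4.43% of all genes at an unadjusted p below 0.05 and 0 members. The smallest p in that test was that of Psma8, followed by Psmb3 (adjusted p = 1 for both, edgeR).

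In vHippo the median over 50 members was -0.08, with 36 negative, against 50.3% of all genes. Of these members, 0 had an unadjusted p below 0.05, against 6.58% of all genes. Psmd11 had 8.21, 8.31 and 8.6 FPKM in CRS and 9.30, 9.42 and 9.14 in naive libraries (-0.16 ± 0.07; adjusted p = 0.750, edgeR). It was 1 of 4 members lower without overlap, with Psmc5, Psmd3 and Psmd4, against 6.67% of all genes, and Psma8 was the 1 higher, against 7.45%. Psma8 had 23, 21 and 31 counts in CRS and 11, 0 and 0 in naive libraries (2.87 ± 1.25; adjusted p = 0.750). CRS 2 held the lowest value of 22 of the 31 constitutive genes, and without it the median was 0.02. That library was also lowest in the neuronal markers, which summed to 801, 663 and 796 FPKM in CRS and 731, 806 and 813 in naive libraries. Its oligodendrocyte markers were the highest, at 612, 1171 and 277 FPKM in CRS and 203, 261 and 291 in naive libraries, and the part of these cells in the vHippo values was not tested.

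In VTA the median over 49 members was 0.07, with 14 negative (51.6% of all genes), and it was -0.01 with an offset for transcript length. There were 3 members with an unadjusted p below 0.05 (Psmb3, Psma3 and Psmc3ip), against 1.61% of all genes. Psmb3, a beta ring subunit, had 14.6, 13.5 and 15.6 FPKM in CRS and 10.4, 10.4 and 10.7 in naive libraries. These groups did not overlap, and the log2 fold change of 0.44 ± 0.11 had an unadjusted p of 0.00516 and an adjusted p of 1.0 (edgeR). Psma3 had 14.2, 13.3 and 13.7 FPKM in CRS and 10.9, 12.1 and 10.9 in naive libraries (0.25 ± 0.10; adjusted p = 1.0). Without VTA naive 2, the library low in dopamine markers, the log2 fold change was 0.42 for Psmb3 and 0.29 for Psma3, and the median over members was 0.07. Those markers were also uneven on the CRS side, reaching 971 FPKM in a CRS library. Leaving out single libraries gave 0.38 to 0.47 for Psmb3 and 0.22 to 0.29 for Psma3. In 6 members the CRS values were all higher, against 4.6% of all genes, and in 2 all lower (Psmb8 and Psmc3ip), against 2.09%.

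NAc gave a median of -0.05 over 49 members with 31 negative, against 52.6% of all genes. Of these members, 0 had an unadjusted p below 0.05, against 2.18% of all genes. Psmb10 had 3.24, 4.26 and 3.36 FPKM in CRS and 4.39, 5.41 and 4.70 in naive libraries, without overlap (-0.38 ± 0.18; adjusted p = 1, edgeR), and was the 1 member lower in this sense, against 3.9% of all genes, while none was higher, against 2.49%. Psme2, a subunit of the interferon-induced activator and near-identical to Psme2b, had 3.60, 4.47 and 3.93 FPKM in CRS and 3.82, 5.70 and 6.18 in naive libraries (-0.34 ± 0.20; adjusted p = 1). Without NAc naive 1 the log2 fold changes of Psmb10 and Psme2 were -0.40 and -0.48. The CRS libraries that also held hippocampal and cortical markers stayed in that fit.

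In mPFC 44 of 49 members had positive estimates, while 49.0% of all genes were negative. The median over members was 0.22, a value that rested on 1 library. Of these members, 0 had an unadjusted p below 0.05, against 1.56% of all genes. The summed constitutive level was 1098, 794 and 662 FPKM in CRS and 712, 700 and 740 in naive libraries, and CRS 1 was highest for 30 of the 31 genes. Without it the median over members was -0.04, with 16 constitutive genes negative and 15 positive, and without CRS 3 it was 0.37. The neuronal markers summed to 1062, 908 and 713 FPKM in CRS and 929, 828 and 641 in naive libraries. They ran in the same order as the constitutive level over the CRS libraries. Among the naive ones, number 3 was lowest in them and had the highest constitutive level. Their part was not tested. Psma5 had 40.9, 27.0 and 20.9 FPKM in CRS and 23.7, 19.2 and 21.8 in naive libraries (0.45 ± 0.28; adjusted p = 1.0, edgeR), so the groups overlapped. Psme2b had 3.83, 4.65 and 3.14 FPKM in CRS and 4.80, 6.67 and 4.93 in naive libraries, lower without overlap (1 member, against 2.29% of all genes), with -0.54 ± 0.34 (adjusted p = 1.0), and Psme3 was the 1 higher, against 2.97%.

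In LH the median over 48 members was 0.01 with 22 negative, against 48.8% of all genes. Of these members, 0 had an unadjusted p below 0.05, against 9.38% of all genes. CRS 3 was highest for 23 of the 31 constitutive genes. Without CRS 3 the median was -0.08. That library had the fewest oligodendrocyte transcripts, which summed to 839, 822 and 632 FPKM in CRS and 2029, 2167 and 933 in naive libraries. Their part in the LH values was not tested. Psmf1, the inhibitor, had 6.07, 5.95 and 5.67 FPKM in CRS and 4.05, 3.73 and 5.42 in naive libraries (0.34 ± 0.17; adjusted p = 0.584, edgeR). It and Psmb2 were higher without overlap, against 12% of all genes, and none was lower, against 3.79%. Psme2 had 4.39, 5.22 and 8.59 FPKM in CRS and 4.51, 3.13 and 4.25 in naive libraries (0.51 ± 0.29; adjusted p = 0.619). Without LH naive 2 the log2 fold changes of Psmf1 and Psme2 were 0.21 and 0.34. The offset for transcript length gave a median of -0.06 and the replicate block gave -0.01.

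Without stress, the members differed between regions by modest amounts. Among 46 members with a level to compare, the highest of the 5 regional means was a median of 1.32 times the lowest (1.07 to 1.94), with the highest in VTA for 19 members and in vHippo for 16, and the lowest in mPFC for 28 and in NAc for 12. In the test over the 5 regions, 7 of 50 members were called, against 26.8% of all genes: Psmd12, Psmc5, Psmb2, Psma2, Psmg3, Psmc6 and Psmd10. Whether that share differs from that of all genes was not tested, and DESeq2 called 15 members. They are 1 lid subunit, 2 base ATPases, 1 beta and 1 alpha subunit and 2 assembly factors. At an unadjusted p below 0.05 there were 15, against 38.4% of all genes.

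In VTA 8 members rose over the mean of the 4 other naive regions, against 10.2% of all genes called higher, and none fell, against 8.02% called lower. Psmd12 (ENSMUSG00000020720, chromosome 11, 107370310 to 107395188 in the LHb table, which is on another build than the promoters) had 44.1, 37.9 and 35.6 FPKM in VTA, against 31.3, 34.0 and 32.1 in LH, 25.6, 23.3 and 26.4 in vHippo, 19.9, 24.3 and 21.2 in NAc, and 24.4, 23.4 and 21.1 in mPFC. All VTA values lay above the others, and the log2 fold change was 0.64 ± 0.10 (95% interval 0.44 to 0.85; adjusted p = 0.000569, edgeR). Psmc5 (ENSMUSG00000020708, chromosome 11, 106146980 to 106153946 in the same table), a base ATPase, had 139, 94.9 and 91.1 FPKM in VTA, against 84.1, 89.7 and 79.1 in LH, 58.2, 62.3 and 63.3 in vHippo, 58.2, 64.4 and 48.8 in NAc, and 57.1, 66.8 and 62.3 in mPFC. Its log2 fold change was 0.74 ± 0.13 (adjusted p = 0.00203), and 0.47 without VTA naive 1.

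Psma2, an alpha ring subunit whose locus overlaps AW209491 on the same strand, rose in VTA by 0.45 ± 0.11 (adjusted p = 0.0108, edgeR), at 23.5, 25.9 and 21.3 FPKM, against 11.1 to 25.2 in the other 4 regions. Psmc6, a base ATPase, rose by 0.45 ± 0.11 (adjusted p = 0.0121), at 31.3, 32.1 and 29.4 FPKM, against 17.6 to 33.1. Both overlapped the other regions through LH naive 2. Psmd10, known as gankyrin and a chaperone of base assembly, had 8.61, 12.4 and 10.5 FPKM in VTA (0.48 ± 0.15; adjusted p = 0.0349). The ubiquitin receptor Psmd4 (0.31 ± 0.09; adjusted p = 0.0312), Psmb7 (0.35 ± 0.11; adjusted p = 0.0351) and Psmc1 (0.32 ± 0.10; adjusted p = 0.0418) also passed. Psmd10, Psmd4, Psmb7 and Psmc1 overlapped LH as well. Their lowest VTA values were 8.61, 29.6, 20.8 and 68.9 FPKM, against highest LH values of 10.9, 30.3, 21.9 and 71.4. Of the 31 constitutive genes, 27 had positive estimates in VTA, with a median of 0.13, while 48.2% of all genes were negative there.

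Oligodendrocyte transcripts moved with VTA too. All 6 genes of that list rose there, with a median log2 fold change of 2.02, and summed to 2392, 1611 and 3605 FPKM in VTA, against 2029, 2167 and 933 in LH, 1438, 1621 and 858 in NAc, 122.6 to 367 in mPFC and 203 to 291 in vHippo. VTA naive 2 lay below 2 LH libraries and 1 NAc library. Its 6 genes fell in mPFC and in vHippo, with a median of -2.08 in each, and were above 0 in all these libraries. Its part in the proteasome levels was not tested. VTA naive 2, NAc naive 1 and mPFC naive 3 stood apart by the markers given above, as did LH naive 2, which was kept. Without the first 3, 2 VTA calls were left, Psmd12 and Psmc5. The test over the regions then called 4 members, 3 of them (Psmd12, Psmc5 and Psmb2) called with all libraries.

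Psmb2 rose in vHippo, the only member called there (6.71% of all genes were called higher). It had 35.5, 34.8 and 37.8 FPKM, against 30.2, 29.3 and 31.3 in LH, 27.5, 28.0 and 29.6 in VTA, 26.2, 28.6 and 27.5 in NAc, and 25.7, 21.0 and 25.8 in mPFC. The vHippo values lay above all others, with a log2 fold change of 0.39 ± 0.07 (adjusted p = 0.00250, edgeR), and Psmb2 passed in each of the 21 alternative settings. In mPFC 2 members fell, Psmb2 (-0.28 ± 0.07; adjusted p = 0.0257) and Psma2 (-0.38 ± 0.12; adjusted p = 0.0471), against 5.29% of all genes called lower. Both mPFC calls were lost when most single libraries were left out.

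In NAc 2 members fell, against 1.77% of all genes called lower. Psmg3, a chaperone of alpha ring assembly, had 0.945, 0.836 and 0.887 FPKM in NAc, against 1.07 to 1.80 in the other 4 regions, without overlap, and a log2 fold change of -0.72 ± 0.17 (adjusted p = 0.0223, edgeR). Psmd12 fell by 0.46 on the log2 scale (SE 0.10; adjusted p = 0.0162). Psmg3 lost the call without NAc naive 2 (adjusted p = 0.110) or 3 (0.149), and Psmd12 without NAc naive 1 (0.0512) or 3 (0.131). In LH 0 of 50 members passed, against 8.15% of all genes, the smallest p being those of Psmd12 (0.26 ± 0.10; adjusted p = 0.136) and Psma5 (-0.25 ± 0.10; adjusted p = 0.167).

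**Figure D5:**
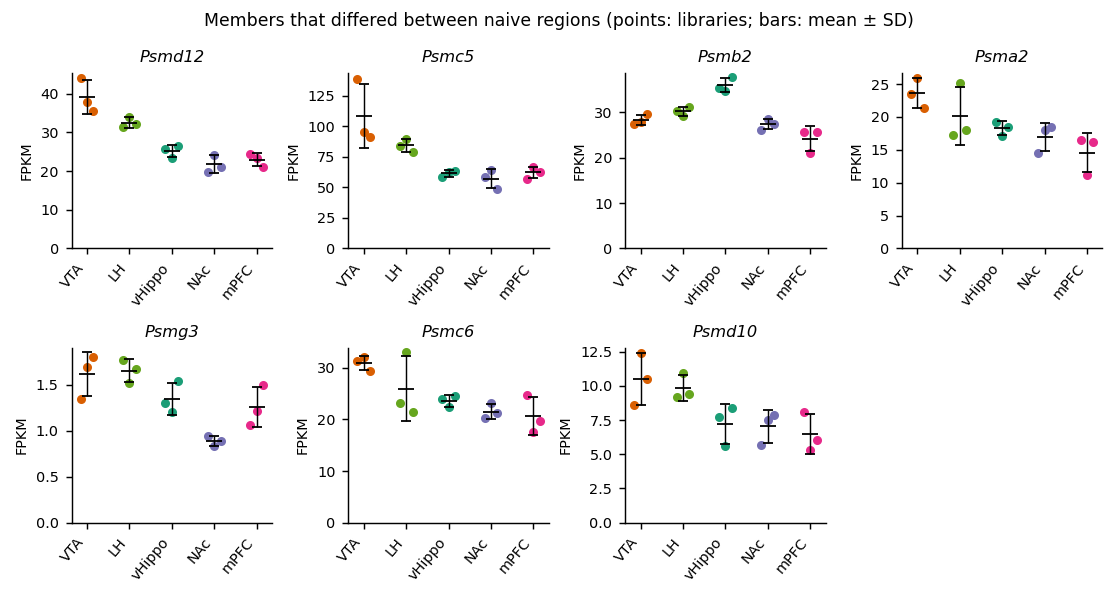
Points are FPKM in the 3 naive libraries of each of 5 regions, with mean and SD, for the 7 members called in the test over the regions. Psmd12 and Psmc5 have their highest values in VTA, Psmb2 in vHippo, and Psmg3 its lowest in NAc, at 0.836 to 0.945 FPKM.

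In LHb, whose table is separate, the naive levels of Psmd12 averaged 27.5 FPKM, those of Psmc5 81.5 and those of Psmb2 35.3, and no test against the other regions was made. Overlapping genes limit some of these values: whether counting used strand is not stated, and Psmb7 overlaps Nek6, Psmc3 overlaps Slc39a13 and Psma3 overlaps 3110056K07Rik on the opposite strand.

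Other genes of the pathway were counted from lists of proteasome-associated proteins, ubiquitin genes, shuttle factors, the unfoldase VCP and its cofactors, regulators of proteasome transcription, and interferon and antigen presentation genes. Of 51 listed, 50 were tested. In LHb CRS against naive mice 0 passed (1.17% of all genes), with 28 of 50 negative (50.9% of all genes). Ecpas, which tethers the proteasome to membranes and motors, rose in naive high over naive low mice (0.55 ± 0.11; adjusted p = 0.0172, edgeR) and in CRS high over naive low mice (0.61 ± 0.11; adjusted p = 0.00788). In the second of these Ddi2, the protease that activates Nrf1, rose as well (0.40 ± 0.10; adjusted p = 0.0481). These were 1 of 50 and 2 of 50, against 3.07% and 3.67% of all genes.

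Between naive regions 9 of the 50 pathway genes were called, against 26.8% of all genes. In VTA 6 rose and 0 fell, against 10.2% and 8.02% of all genes, and those that rose included the proteasome-bound deubiquitinase Uchl5 (0.80 ± 0.13), the proteasome-bound thioredoxin Txnl1 (0.67 ± 0.10), Nfe2l2 (0.65 ± 0.21), Faf1 (0.43 ± 0.09) and the core assembly factor Pomp (0.32 ± 0.10). In NAc 0 rose and 3 fell (Uchl5, Txnl1 and Irf1), against 4.72% and 1.77% of all genes. In mPFC 4 rose (H2-T23, Ubqln4, Akirin2 and Zfand2a) and 2 fell (Txnl1 and Faf1), against 7.44% and 5.29% of all genes. In vHippo 1 rose (Irf1) and 2 fell (H2-T23 and Erap1), against 6.71% and 5.56%, and in LH 2 rose (Faf1 and Txnl1) and 0 fell, against 4.43% and 3.72%. The interferon and antigen presentation list summed to 127 to 142 FPKM in CRS high and 126 to 165 in CRS low LHb libraries, against 105 to 142 in naive high and 120 to 161 in naive low libraries, ranges that overlapped.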

How the data were processed

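RNA of 42 mouse brain libraries in 14 groups of 3 was used. The deposited tables hold whole-number counts per gene and FPKM computed by the authors, per the file headers. The submitters' processing notes name cutadapt 1.9, HISAT2 2.0.4, StringTie 1.3.4d, edgeR (no version) and GRCm39. Gene starts of the second table equal GRCm38 for 99.52% of 40748 matched genes, so gene coordinates are printed from the LHb table only, in which 0 of 51 members start where GRCm38 has them. The promoters are RefSeq's on GRCm38.p6. Interferon motifs searched in promoters are not reported here. The counter and its strand setting are not given in the sources used here. The LHb and other-region tables were normalised separately, so no test crosses them. A further 18 columns matched no sample and were not used.

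The main test was the two-sided quasi-likelihood test of edgeR 4.0.16 (R 4.3.3) on the counts, after filterByExpr and TMM scaling. P-values were adjusted by Benjamini-Hochberg over all genes tested, with a threshold of 0.05. The LHb fit held 12 libraries, each other region 6, and the naive fit 15. Adjusted p-values of single genes are from this test. Fits were tested on simulated counts. FPKM is given as mean ± SD. Overlap between groups was judged on FPKM, which is scaled by library size without TMM, so it can lean otherwise than the fold changes. Catalytic ratios of FPKM in LHb were tested with an exact permutation test (scipy 1.17.1). Alternatives were DESeq2 1.42.0, its size factors, no filter, a transcript length offset, a replicate block, libraries left out and, for ratios, counts or a pseudocount of 0.1 FPKM. Within-group pairs (42) were no copies of each other, with chi-square per gene of 24.1 to 427.

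The labels state no pairing of libraries. Replicate numbers were taken to pair CRS and naive libraries where all correlations of deviations lay above 0.1, a limit set here. Only NAc met it (0.125, 0.168 and 0.396), and the block changed no call there. The median correlations in vHippo (0.216) and mPFC (0.195) were higher than in NAc, so the limit does not establish pairing.

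The members and lists were chosen with earlier results of these data known, in which proteasome genes had a lower median in CRS LHb, so that direction is not independent support. Members called were named, up to 4 of smallest p and 2 of largest change in a direction. Where none was called the 2 of smallest p were named, with the catalytic pairs and Psma5 for CRS in LHb. Members singled out for not overlapping were chosen after their values were seen.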

Additional observations from a re-analysis of the deposited data

Results flagged for a closer look

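The Psmb10 to Psmb7 ratio of LHb CRS low 3 was 34.4%, the lowest of the 6 CRS libraries, and its gap to the next value (37.6%) was large for the range of that group. Of the 26 groups of LHb values checked, 1 stood out in this way, and chance gives about 1 in 20. Without that library the difference between CRS and naive mice was 0.39 (exact permutation p = 0.0260). The same library had the highest summed level of constitutive genes among the CRS libraries, at 897 FPKM. It was also the only CRS LHb library named for neither pancreatic nor choroid plexus transcripts. Every CRS library kept without it was thus named for such transcripts.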

How the results depend on the processing

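Each alternative was run. The number of members called stayed at 0 in the CRS, FST class and interaction comparisons under DESeq2, its size factors, no filter, the transcript length offset, the replicate block, other fits and each library left out. Between naive regions the counts moved, and the cause was not tested. For the test over the regions (7 members) they were 15 with DESeq2, 4 without the filter and 4 with the length offset. They were 4 without VTA naive 2, NAc naive 1 and mPFC naive 3, an alternative chosen after seeing the data, which kept LH naive 2. For VTA (8) they were 10 with DESeq2, 4 without the filter, 4 with the length offset and 2 without those libraries. For vHippo (1) they were 2 with DESeq2 and 2 without those libraries, for NAc (2) 5 with DESeq2 and 1 with the length offset, and for mPFC (2) 1 with DESeq2 size factors and 0 without the filter or with the length offset. Without those 3 libraries mPFC had 2 called, Psme2 and Psmb6, neither of them called with all libraries. Leaving out single libraries gave 4 to 8 members over the regions, 3 to 9 in VTA (3 without VTA naive 1), 1 to 2 in vHippo, 0 to 4 in NAc (0 without NAc naive 3) and 0 to 3 in mPFC. The mPFC count was 0 without vHippo naive 1, 2 or 3, VTA naive 1 or 3, NAc naive 2, mPFC naive 1 or 2, or LH naive 1.

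With the replicate block VTA had 5 members called, mPFC 1, NAc 3 and the test over the regions 7, and it changed no CRS call. In LHb 13 of 18 same-numbered pairs had correlations above 0.1, so the numbers were not taken to pair libraries there.

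For Psma5, LHb CRS vs naive, the log2 fold change was 0.00896, and for Psmb6, LHb CRS vs naive, it was 0.028, without the choroid plexus libraries, and leaving out single libraries gave Psmb6 values of -0.0892 (without CRS low 3) to 0.00149 (without CRS high 1). The ratio of Psmb10 to Psmb7 fell short of an unadjusted p of 0.05 without the choroid plexus (0.37) or pancreas libraries (0.29) and kept a difference of 0.30 to 0.45 without single libraries. That of Psmb8 to Psmb5 ran from 0.28 to 0.44 (exact permutation p = 0.0346 without CRS low 3), and that of Psmb9 to Psmb6 from -0.37 to -0.12. The medians over members, which have no test, turned sign under at least 1 alternative for CRS in LH, vHippo, mPFC, NAc and VTA, for naive high against naive low LHb and for naive LH. With 3 libraries a group, the number of libraries limits the precision.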
